A study of Mus musculus with 56 samples.

Results

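The numbered Zfp genes are mouse genes named Zfp followed by a number, most of which encode proteins with C2H2 zinc fingers. They were selected on symbol, through the gene ID, and on detection, a deposited value above 0 in all 56 libraries; Zfp36, a CCCH-type protein that binds RNA, was left out. Of 358 such genes among the 19072 genes in the table, 331 met the rule. Since members were chosen by detection, their detection is not a result, and ZT16 was singled out with earlier results of these data in view. Gastrocnemius muscle of the calf was sampled from C57BL/6J females aged 9 weeks. All mice had a cycle of 12 h light and 12 h dark and a week of chow ad libitum before a further 7 days of feeding restricted to the day (daytime-restricted feeding, DRF) or to the night (nighttime-restricted feeding, NRF, the reference). Libraries were made every 4 h from zeitgeber time 0 (ZT0, lights on) to ZT24, with 4 libraries in each of the 14 groups. The labels do not say whether the 4 libraries of a group came from separate animals, so the p-values measure the spread between these libraries.

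A C2H2 finger is a short fold in which a pair of cysteines and a pair of histidines hold a zinc ion, and fingers joined by a conserved linker read DNA in series. In the largest subfamily the fingers follow a KRAB box, which recruits the corepressor Trim28 and, with it, the histone methyltransferase Setdb1 and HP1 proteins. KRAB zinc finger proteins are known for silencing transposable elements, and their genes lie in clusters that arose by duplication. Members without a KRAB box include sequence-specific activators and repressors, RNA-binding proteins and a ribosome-associated ubiquitin ligase.

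To show what the members share and how they differ in base composition, 1 finger with its linker is printed for the 5 members with the smallest p at ZT16, all lower in DRF, and for Zfp358, which was higher. Each is coding DNA of 84 bases, 5′ to 3′ on the gene's strand, from the GENCODE M21 transcript with the longest coding sequence on GRCm38; capitals mark the codons of the 4 zinc-binding residues, cysteine, cysteine, histidine and histidine.
Zfp62, chr11:49215543-49215626, plus strand: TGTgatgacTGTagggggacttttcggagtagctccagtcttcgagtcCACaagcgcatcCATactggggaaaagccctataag
Zfp606, chr7:12493334-12493417, plus strand: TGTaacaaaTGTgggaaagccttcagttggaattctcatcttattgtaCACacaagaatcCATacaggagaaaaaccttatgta
Zfp947, chr17:22146056-22146139, minus strand: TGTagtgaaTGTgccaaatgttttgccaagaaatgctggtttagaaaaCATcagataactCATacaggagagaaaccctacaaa
Zfp27, chr7:29895501-29895584, minus strand: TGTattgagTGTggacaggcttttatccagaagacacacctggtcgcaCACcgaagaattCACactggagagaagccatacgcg
Zfp281, chr1:136626063-136626146, plus strand: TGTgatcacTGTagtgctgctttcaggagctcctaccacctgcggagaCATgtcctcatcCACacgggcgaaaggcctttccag
Zfp358, chr8:3496221-3496304, plus strand: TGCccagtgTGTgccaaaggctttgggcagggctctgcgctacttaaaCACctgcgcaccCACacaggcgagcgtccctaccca
The printed fingers held 35.7% G and C in Zfp606, 36.9% in Zfp947, 50% in Zfp27, 51.2% in Zfp62, 56% in Zfp281 and 61.9% in Zfp358, so those of the lower members were not all poor in G and C. Over the whole coding sequence the GC content was 36.5% in Zfp947, 41.3% in Zfp62, 41.4% in Zfp606, 49.5% in Zfp281, 49.9% in Zfp27 and 59.3% in Zfp358. The same finger form with this linker occurred 12 times in Zfp62 and in Zfp27, and 1 time in Zfp281.

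Of the 328 members with a coding sequence in the annotation, 191 had a KRAB box and 137 did not. A search for the C2H2 spacing found a median of 11 fingers per protein (0 to 36), with 10 or more in 190 members and none in 9. Chromosome 7 held 83 members, chromosome 17 held 41 and chromosome 13 held 30. Transcripts of KRAB members had a median GC content of 41.7%, against 51.1% in the members without the box. The tested members as a whole had a median of 45.4%, against 50.6% over all tested genes, while their median length of 4587 bases was close to the 4492 of all tested genes.

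Read counts were recovered from the deposited values, which are a score on a log scale, and are given as counts per 1000000 reads (CPM) of the authors' library size. Totals were 28172990 to 36183392 reads per library. At ZT16 they were 32379100, 32471100, 36183400 and 32989800 in DRF and 28501700, 30375000, 31232800 and 31730000 in NRF, without overlap. The authors' library size, divided by the total, was 0.952, 0.885, 0.854 and 0.918 in DRF and 1.058, 1.027, 0.971 and 0.962 in NRF. The part of these library properties in the ZT16 differences below was not tested. The time labels were checked on clock genes: the mean of Nr1d1 was highest at ZT4 in both regimens, Per2 at ZT12 in both, and Arntl at ZT20 in DRF and ZT24 in NRF. Markers of muscle fibres dominated every library, with a summed level of the 6 fibre markers between 98339 and 234634 CPM. A single library each of DRF ZT20 (replicate 1) and NRF ZT20 (replicate 4) stood apart in the measures described below.

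Most members were expressed at low levels. The median member had 5.81 CPM (0.191 to 1610), 110 members had 10 CPM or more and 3 had 100 or more. KRAB members had a median of 3.72 CPM and members without the box 13.2. Per kilobase of gene length the highest level was that of Zfp106, an RNA-binding protein known for a part in keeping muscle innervated, at 154 CPM per kb. Its level was 1610 CPM on average and ranged from 1000 to 2176 over the libraries. Zfp91, an E3 ubiquitin ligase, followed with 31.7 CPM per kb, Zfp651 with 29.8, Zfp970 with 22.1 and Zfp488 with 19.2. The first of these stood far above the rest, and the libraries' ranges of Zfp91 (222 to 408 CPM) and Zfp651 (152 to 318 CPM) overlapped. Counts of Zfp970 and Zfp488 were decimal, as arises where reads are shared with other genes, so their levels are uncertain; 87 members had such counts.

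At the other end, 31 members had a mean under 1 CPM and were not tested for differences, among them Zfp57, a KRAB protein known for protecting imprinted marks, at 0.888 CPM. Just inside the detection rule were Zfp300 with 0.27 CPM, Zfp750 with 0.667 and Zfp996 with 0.208. Just outside it, Zfp985 and Zfp957 were above 0 in 55 libraries and Zfp473 in 54. The other 300 members, with a mean of 1 CPM or more, were tested with limma among 12024 genes, and p-values were adjusted by Benjamini and Hochberg over all of these.

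The set as a whole was lowest at ZT16 in DRF. For each library the median over the 300 tested members of the log2 deviation from the gene's mean over all libraries was taken. At ZT16 these medians were -0.254, -0.206, -0.268 and -0.056 in the DRF libraries and 0.041, 0.033, 0.093 and 0.032 in the NRF libraries. Every DRF library thus lay below every NRF library at that time, and replicate 4 of DRF was nearest to NRF. At ZT20 the DRF medians were -0.404, -0.002, -0.026 and -0.019, and those of NRF were 0.026, 0.030, 0.057 and -0.273. The groups overlapped there, and 1 library in each regimen lay far below its 3 companions. At ZT0 the group means were 0.083 ± 0.024 (SD, n = 4) in DRF and 0.090 ± 0.032 (SD, n = 4) in NRF, and at ZT12 they were 0.021 ± 0.044 and 0.012 ± 0.067. At ZT24, the same clock time as ZT0, the medians were 0.025, 0.004, -0.005 and -0.125 in DRF. In NRF they were 0.055, 0.080, 0.006 and 0.038. Every DRF library of ZT24 lay below every DRF library of ZT0 (0.060, 0.109, 0.065 and 0.097), so the set also differed within DRF at 1 clock time. Medians over all tested genes stayed between -0.005 and 0.019 as group means.

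**Figure D1:**
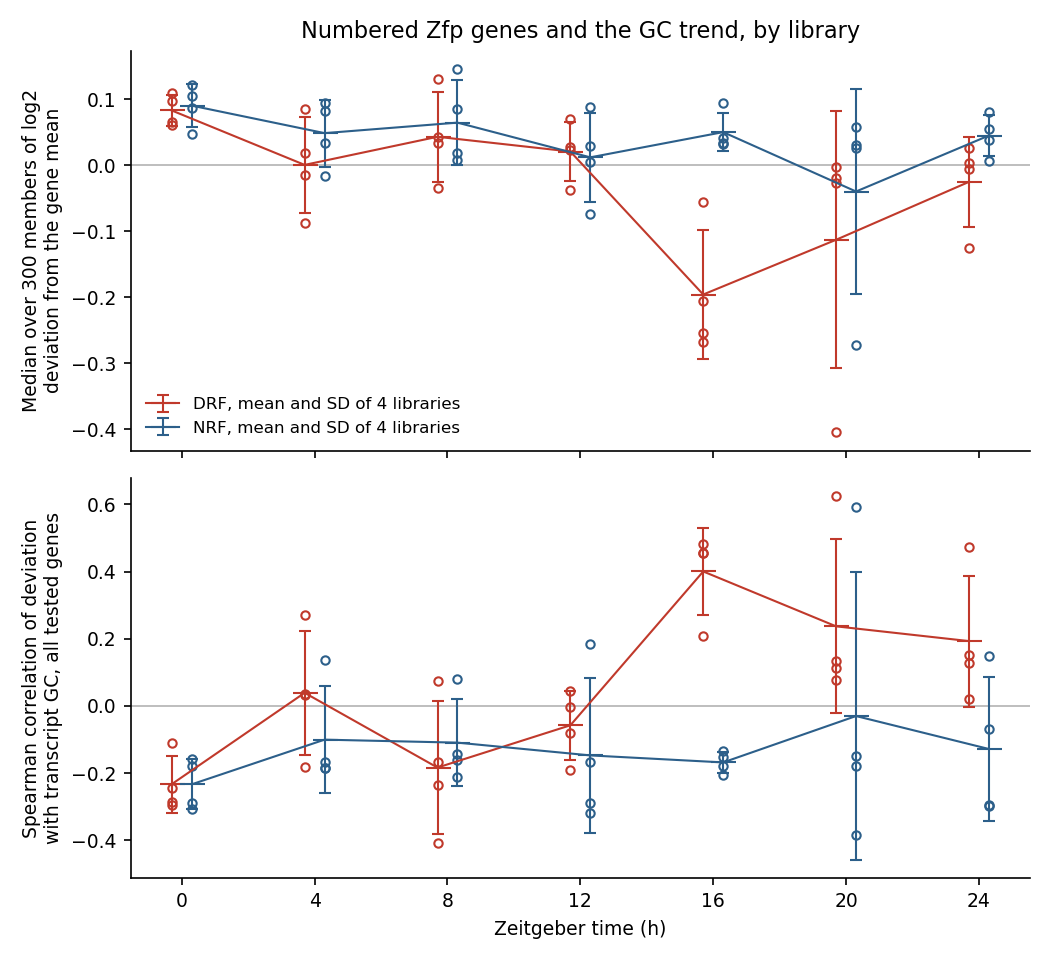
The upper panel plots, against zeitgeber time in hours, the median over 300 members of the log2 deviation from the gene's mean for each library (circles), with the mean and SD of the 4 libraries of each regimen; the lower panel plots the Spearman correlation, over all tested genes, of that deviation with the GC content of the transcript. The DRF libraries at ZT16 lie at -0.268 to -0.056 in the upper panel, below all NRF libraries of that time, and 3 of them have correlations of 0.454 to 0.483 in the lower panel.

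At ZT16, 86 of the 300 tested members were lower in DRF than in NRF and 3 were higher (limma, adjusted p under 0.05). Over all tested genes 6.74% were lower and 4.02% higher. The members' share of lower calls was 28.7%. The estimate was below 0 in 235 members, and the median log2 difference was -0.212, against 0.027 over all genes. In 101 members (33.7%) every DRF library lay below every NRF library, against 10.5% of all tested genes, and in 7 members (2.33%) every DRF library lay above, against 7.76%. In bulk tissue, fewer cells of a type and less RNA per cell cannot be told apart.

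Zfp281, a zinc finger protein known from the control of pluripotency genes, had the smallest p (Entrez 226442, chr1:136624901-136630391). Its levels at ZT16 were 11, 7.69, 7.06 and 13.3 CPM in DRF and 17.3, 16.7, 17.4 and 18.5 CPM in NRF. The DRF libraries were lower without overlap, with a log2 difference of -0.82 (SE 0.159, adjusted p = 0.00473). Zfp62, which carries 25 fingers (Entrez 22720, chr11:49203261-49218816), had 10.1, 12.2, 5.79 and 15.8 CPM in DRF. In NRF it had 23.6, 22.3, 24.5 and 22.5 CPM, so that the groups did not overlap and DRF replicate 3 was lowest. Its difference of -1.09 (SE 0.255, adjusted p = 0.0130) was the largest of the members with the 5 smallest p.

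The KRAB member Zfp606 (Entrez 67370, chr7:12478280-12496235) had 3.31, 3.13, 2.75 and 4.59 CPM in DRF against 7.49, 6.31, 6.36 and 5.76 CPM in NRF. No DRF library reached the lowest NRF library, and the log2 difference was -0.76 (SE 0.176, adjusted p = 0.0122). Zfp27 (Entrez 22689, chr7:29893331-29906569), with 21 fingers and no KRAB box, had 6.42, 8.77, 6.60 and 7.27 CPM in DRF against 10.2, 10.7, 9.27 and 8.97 CPM in NRF. The gap between the groups was narrow, and the difference was -0.39 (SE 0.0842, adjusted p = 0.00996). The KRAB member Zfp947 (Entrez 210853, chr17:22144355-22166172) had 0.813, 0.730, 0.773 and 1.42 CPM in DRF against 1.82, 2.60, 2.82 and 1.69 CPM in NRF. Its counts are decimal and low, the groups did not overlap, and the difference was -0.74 (SE 0.170, adjusted p = 0.0122).

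Zfp638, a protein known for binding DNA and RNA and for a part in silencing retroviral DNA, fell by 1.00 on the log2 scale (adjusted p = 0.0228), from 36.4 ± 1.13 CPM (SD, n = 4) in NRF to 18.5 ± 5.79 CPM (SD, n = 4) in DRF. Zfp612 (-0.81, adjusted p = 0.0171), Zfp52 (-0.78, adjusted p = 0.0236), Zfp770 (-0.70, adjusted p = 0.0178) and Zfp597 (-0.63, adjusted p = 0.0148) were also lower by limma. The higher members were Zfp358, Zfp384 and Zfp444, none with a KRAB box. Zfp358 (Entrez 140482, chr8:3493138-3497208) had 46.4, 50.1, 53.8 and 50 CPM in DRF and 36.8, 37.9, 44.9 and 36.1 CPM in NRF, all DRF libraries being higher. Its difference was 0.36 (SE 0.105, adjusted p = 0.0269), and those of Zfp384 and Zfp444 were 0.18 (adjusted p = 0.0419) and 0.35 (adjusted p = 0.0217). With the summed reads in place of the authors' library size no member was called higher and 131 (43.7%) were called lower, against 16.9% of all tested genes called in either direction; the median over all genes was then -0.110.

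Most of these calls were lost when 1 library was left out. Without DRF ZT16 replicate 3 only Zfp281 was called (adjusted p = 0.0453), and the adjusted p of Zfp62, Zfp606, Zfp27 and Zfp947 became 0.0899, 0.0668, 0.0536 and 0.0566. Without replicate 1 or 2 of DRF the count of 89 became 49 or 26, without replicate 4 it became 124, and without replicates 1 to 4 of NRF in turn it became 27, 27, 47 and 39. Calls fell over all 12024 tested genes as well. Their count of 1293 became 40 without DRF replicate 3, and 679 or 301 without DRF replicate 1 or 2. Without replicates 1 to 4 of NRF in turn it became 466, 351, 644 and 505. The members' median difference stayed between -0.259 and -0.188 over these omissions.

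The ZT16 difference varied with the GC content of the transcript. Below 40% GC, 46 of 68 members were lower in DRF and the median difference was -0.628. From 40 to 45% GC, 34 of 79 were lower with a median of -0.368, and from 45 to 50%, 6 of 58 with a median of -0.118. At 50 to 55% none of 46 was lower and 2 were higher (median -0.0097), and at 55% or more none of 47 was lower and 1 was higher (median 0.061). All tested genes showed an order of the same kind, with medians of -0.424, -0.214, -0.022, 0.1 and 0.130 in the same bands. The members' calls within a band are not set against the calls of all genes in that band. They do not show whether members were called more often than other genes of like GC content. The Spearman correlation of the difference with GC was 0.82 over 298 members and 0.583 over 11925 genes; these are correlations across genes measured in the same libraries and are given as a description.

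KRAB members, which have the lower GC content, made up most of the lower calls: 63 of 171 were lower and none higher, with a median of -0.329. Of 127 members without the box, 23 were lower and 3 higher, with a median of -0.054. Within GC bands the medians of KRAB members and of the others were -0.629 (59 KRAB members) and -0.515 (9 others) below 40% GC, -0.353 (57) and -0.393 (22) from 40 to 45%, -0.127 (32) and -0.094 (26) from 45 to 50%, -0.0742 (17) and 0.0108 (29) from 50 to 55%, and 0.0795 (6) and 0.0458 (41) at 55% or more. The difference between the kinds was not tested within bands. Members with decimal counts had a median of -0.416 and 29 of 78 were lower, against -0.150 and 57 of 222 for members with whole counts. Over all tested genes, of any GC content, 6.74% were lower and 4.02% higher.

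**Figure D2:**
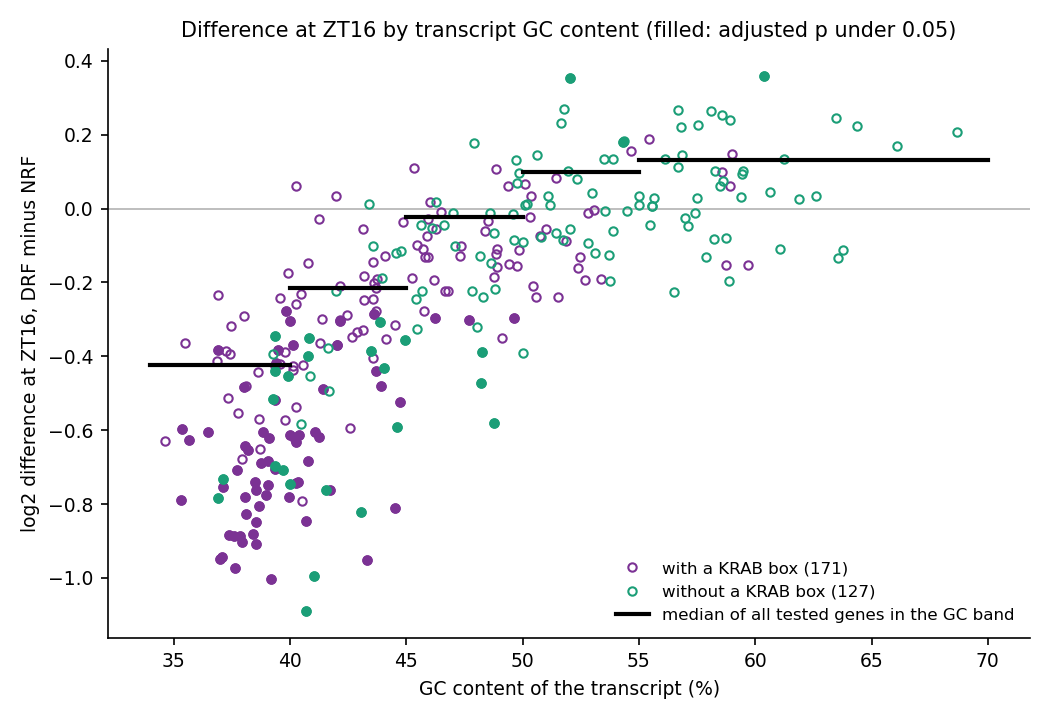
Each point is a tested member, placed by the GC content of its transcript in percent and its log2 difference at ZT16 (DRF minus NRF); purple marks members with a KRAB box, green those without, filled points an adjusted p under 0.05, and black bars the median over all tested genes in the GC band. Members below 40% GC have a median of -0.628 and members at 55% or more a median of 0.061, and the black bars rise from -0.424 to 0.130.

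Libraries carried a GC trend of their own, measured as the Spearman correlation over all tested genes of a gene's deviation in that library with transcript GC. In DRF at ZT16 it was 0.454, 0.456, 0.483 and 0.208, and in NRF at ZT16 -0.135, -0.180, -0.205 and -0.154. Within DRF its group mean was -0.233 at ZT0 and 0.193 at ZT24, which are the same clock time. A trend over 0.4 occurred in 6 of the 56 libraries, the 3 at DRF ZT16, DRF ZT20 replicate 1, DRF ZT24 replicate 4 and NRF ZT20 replicate 4. The same 6 libraries were the ones with a members' median under -0.1 (-0.404 to -0.125); both limits were set after the values were seen. With each library's GC trend over all genes removed, 11 members were lower and 1 was higher at ZT16, against 2.4% of all tested genes called in either direction, and the median was -0.0965. Of the 89 members called before, 11 were called again: Zfp281 (-0.60, adjusted p = 0.00628), Zfp27 (-0.37, adjusted p = 0.0125), Zfp606 (-0.48, adjusted p = 0.0145), Zfp62 (-0.75, adjusted p = 0.0149), Zfp638, Zfp612, Zfp146, Zfp160, Zfp445, Zfp788 and Zfp946. Zfp560 was the one higher.

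The trend of each library with gene length was measured in the same way. In DRF at ZT16 it was -0.302, -0.158, -0.327 and -0.011, and in NRF it was -0.039 to 0.140. Among members the ZT16 difference had a correlation of 0.012 with gene length, against -0.299 over all tested genes. With each library's length trend removed, 79 members were lower and 5 higher at ZT16 (28% in all, against 10.3% of all tested genes in either direction), and the median was -0.209, against 0.027 over all genes.

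Cell types were followed through 10 fixed marker lists. At ZT16 the summed level of 4 erythroid markers was 279 to 1237 CPM in DRF and 138 to 298 in NRF, and 2 of the 3 tested were higher. The 6 fibre markers summed to 178872 to 227686 CPM in DRF and 133422 to 184094 in NRF, and none of the 6 passed the test. The satellite cell markers summed to 15.7 to 20.2 CPM in DRF and 19.5 to 24.2 in NRF, the fibroblast markers to 1405 to 1611 and 1503 to 2025, and the tendon markers to 290 to 524 and 200 to 372. Endothelial (259 to 361 and 243 to 354), adipocyte (170 to 342 and 163 to 325), immune (24.7 to 35.8 and 21.8 to 30.6), Schwann cell (130 to 423 and 131 to 222) and smooth muscle markers (97.9 to 128 and 87.0 to 117) overlapped between the regimens, as did all the sums above. Apart from the erythroid markers, no marker passed the test at ZT16, and none was at 0 in every library. Their part in the members' difference was not tested.

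The ZT16 difference is also given by position. Runs of 6 or more members whose starts lie within 250 kb of the next formed 9 clusters with 101 members, a grouping made after the values were known. In the largest of chromosome 17 (chr17:21383707-22456689), all 18 members had a KRAB box and 15 of 16 tested were lower at ZT16, with a median difference of -0.786 and a median GC content of 38.5%. It holds Zfp52 and Zfp947. Over all tested genes, of any GC content, 6.74% were lower at ZT16 and 4.02% higher. With each library's GC trend removed, Zfp946 alone of this cluster was called. Zfp52 (-0.41, limma adjusted p = 0.146) and Zfp947 (-0.30, limma adjusted p = 0.111) then lost the call. In the cluster of 18 members on chromosome 13 (chr13:67038594-67827000), 4 of 15 were lower with a median of -0.519. A cluster of 15 on chromosome 7 (chr7:29768552-30169775), with Zfp27 and Zfp568, had 6 lower and a median of -0.297. Of these, Zfp27 and Zfp146 kept the call with the GC trend removed. The clusters of 7 members on chromosome 6 (median GC 55%) and of 6 members on chromosome 7 (median GC 61.2%) had no lower call and medians of 0.098 and 0.071. Neighbours are paralogs, and reads may be shared between them.

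**Figure D3:**
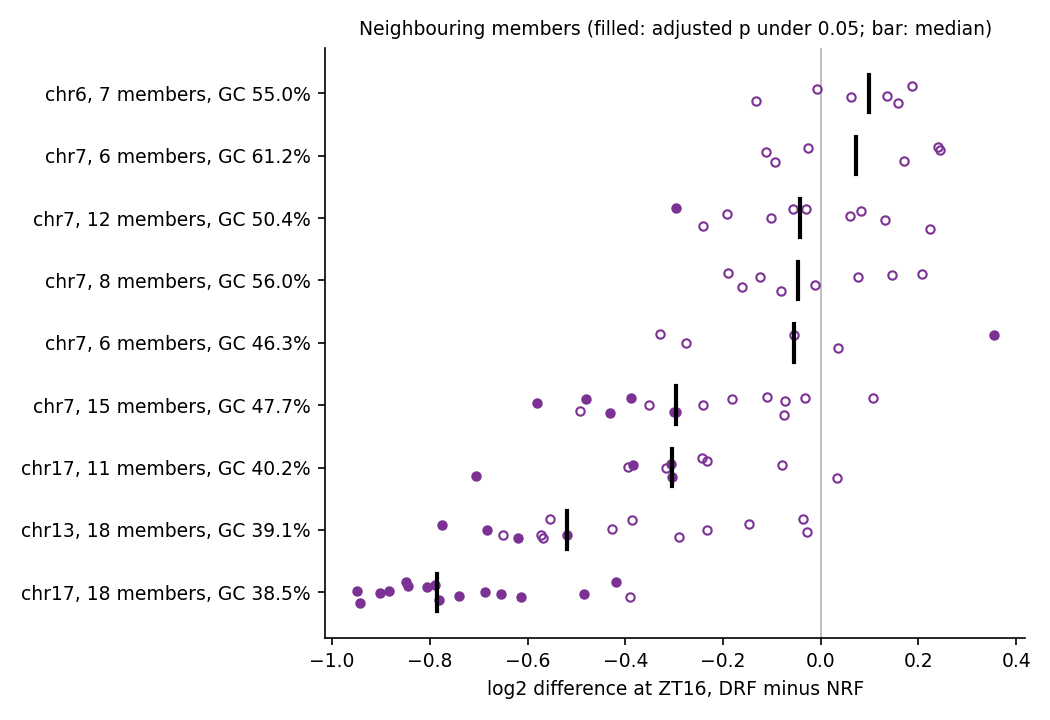
Each row is a cluster of neighbouring members, labelled with its chromosome, number of members and median transcript GC, and each point is a tested member's log2 difference at ZT16 (DRF minus NRF), filled where the adjusted p is under 0.05; black bars are medians and the vertical spread within a row has no meaning. The lowest row, with 18 members on chromosome 17, has a median of -0.786, and the top row, with 7 members on chromosome 6, a median of 0.098.

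At the other times few members were called. At ZT0, Zfp41 (-0.58, adjusted p = 0.00934) and Zfp142 (-0.46, adjusted p = 0.0436) were lower in DRF and none was higher (background 0.965% lower, 0.882% higher). At ZT4, Zfp41 was again lower (-0.55, adjusted p = 0.0190) and Zfp672 was higher (0.31, adjusted p = 0.0353; background 0.299% lower, 0.674% higher). No member was called by limma at ZT8, where 19 had an unadjusted p under 0.05 (background 0.0998% lower, 0.108% higher). At ZT12, 6 members were higher and 3 lower (background 2.15% and 1.36%), with Zfp41 now higher by 0.47 (adjusted p = 0.0369), Zfp467, known from fat and bone cell differentiation, higher by 0.48 (adjusted p = 0.0408) and Zfp704 lower (-0.37, adjusted p = 0.0472).

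At ZT20, 11 members were lower and none higher (background 2.25% and 0.715%), among them the abundant Zfp106 (-0.45, adjusted p = 0.0394) and Zfp91 (-0.41, adjusted p = 0.0344), and Zfp704 (-0.52, adjusted p = 0.00608). Zfp568, a KRAB protein known for repressing a placental Igf2 transcript, was lower by 0.45 on the log2 scale there (adjusted p = 0.0482 in limma). At ZT24, 9 were higher and 6 lower (background 3.49% and 2.06%). Zfp110 (0.31, adjusted p = 0.0465), Zfp212 (0.28, adjusted p = 0.0237) and Zfp422 (0.26, adjusted p = 0.0339) were higher, while Zfp597 (-0.56, adjusted p = 0.0189), Zfp947 (-0.60, adjusted p = 0.0269) and Zfp488 (-0.48, adjusted p = 0.0431) were lower. These 6 times together gave 16 higher and 23 lower calls, against 1809 calls over all tested genes in either direction. With the summed reads as library size they gave 0 higher and 37 lower, against 2163 over all tested genes in either direction. The 2163 calls are not split by direction here, so the turn to lower calls is not shown to be particular to the members. Each call named for these times was lost when 1 library of that time was left out, with a largest adjusted p from 0.0553 (Zfp704 at ZT20, without NRF replicate 3) to 0.253 (Zfp106 at ZT20, without DRF replicate 1). With the GC trend removed, the calls of Zfp467 and Zfp704 at ZT12, Zfp106, Zfp91 and Zfp568 at ZT20, and Zfp597 and Zfp947 at ZT24 were lost, with adjusted p of 0.0521 to 0.0736.

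Averaged over the day, with ZT0 and ZT24 counted as 1 time, 47 members were lower in DRF and 6 were higher (background 7.53% and 8.35%). The median difference was -0.077, against -0.0014 over all genes. Zfp704 had the smallest p (-0.25, SE 0.0424, adjusted p = 0.00034), with a median of 10.4 CPM in DRF (6.92 to 13.2) and 12.5 in NRF (9.07 to 15.2) over 28 libraries each. The ranges overlapped, and the call held without any single library. Zfp358 (0.17, adjusted p = 0.00539) and Zfp524 (0.16, adjusted p = 0.00384) were higher, and Zfp266 (-0.14, adjusted p = 0.00744) and Zfp597 (-0.24, adjusted p = 0.00779) lower. The count of 53 became 118 without NRF ZT20 replicate 4, 81 without DRF ZT16 replicate 4, 25 without DRF ZT20 replicate 1 or NRF ZT20 replicate 3, 27 without DRF ZT16 replicate 3, 30 without NRF ZT20 replicate 1, and 34 without DRF ZT4 replicate 2 or NRF ZT12 replicate 3. Over all tested genes the count of 1909 became 2917, 2368, 1271, 1269, 1375, 1552, 1582 and 1502, in the same order of libraries. With each library's length trend removed 22 members were lower and 8 higher (10% in all, against 8.87% of all tested genes). With the GC trend removed 9 were lower and 6 higher (5.03%, against 9.34%); the calls of Zfp266 (-0.022, adjusted p = 0.695) and Zfp597 (-0.12, adjusted p = 0.0621) were lost.

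Within DRF, ZT16 was set against the mean of the other times. Here 99 members were lower and 10 higher (background 9.15% and 7.97%), and the median was -0.186. The smallest p values were those of Zfp867 (-0.51, adjusted p = 0.000478), Zfp871 (-0.38, adjusted p = 0.000824), Zfp606 (-0.68, adjusted p = 0.00111), Zfp462 (-0.57, adjusted p = 0.00117) and Zfp770 (-0.66, adjusted p = 0.00175). Within NRF, Zfp799 (-0.41, adjusted p = 0.00220) and Zfp275 (-0.38, adjusted p = 0.00514) were lower at ZT16 and none was higher (background 1.57% and 1.3%); the median was 0.020. The 2 regimens differed by an interaction test in 1 member, Zfp281 (-0.77, SE 0.173, adjusted p = 0.0391; 0.258% of all genes were lower and 0.0915% higher), while 117 members had an unadjusted p under 0.05. Its adjusted p became 0.151 without DRF ZT16 replicate 3, and the call of Zfp275 in NRF was lost without NRF ZT16 replicate 2 (adjusted p = 0.0637). Without DRF ZT16 replicate 1, 2 or 3 the count over all tested genes went from 2058 to 1479, 739 or 679. Under the same omissions the members' count of 109 became 70, 51 or 24. With the GC trend removed it became 53 (17.8%, against 10.2% of all tested genes), and Zfp871 lost its call (-0.12, adjusted p = 0.234), while Zfp867 (-0.32, adjusted p = 0.00328) and Zfp770 (-0.37, adjusted p = 0.0124) had smaller differences.

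A 24 h rhythm was fitted in each regimen as a cosine and a sine term. In DRF 165 members (55%) were rhythmic, against 48.7% of all tested genes. Most fitted peaks of the rhythmic members lay in the light phase: 94 of 165 (57.0%) peaked from ZT4 to ZT8, against 25.5% of all rhythmic genes, and 131 (79.4%) from ZT0 to ZT12, against 52.4%. Of 90 rhythmic KRAB members 62 (68.9%) peaked from ZT4 to ZT8, and of 74 without the box 32 (43.2%). In a 24 h cosine a peak from ZT4 to ZT8 is a trough from ZT16 to ZT20. These peak times are therefore not a result apart from the low values of DRF at ZT16 and ZT20. Peak times with each library's GC trend removed were not examined. The median peak-to-trough difference was 0.425 on the log2 scale (0.148 to 1.18), against 0.379 over all rhythmic genes, and reached 1 or more in Zfp52, Zfp62, Zfp445, Zfp638 and Zfp827. With each library's GC trend removed 131 members were rhythmic in DRF, and 105 of the 165 were among them. That share of 44.0% was near the 44.6% of all tested genes, and with quantile scaling 139 members (46.3%) were rhythmic, against 48.4%, so that the higher share of members above was not seen under either setting. With GC and length trends both removed it was also absent (43.0%, against 43.9%). It was seen with total-count scaling (69.3%, against 50.3%), the length trend removed (51%, against 47.7%) and no filter (45.3%, against 33.4%), among others.

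In NRF 34 members (11.3%) were rhythmic, against 15.1% of all tested genes. Their peaks were spread over more of the day, with 12 of 34 (35.3%) from ZT8 to ZT12, against 14.5% of all rhythmic genes, and 9 from ZT20 to ZT24. The median peak-to-trough difference was 0.341, against 0.457 over all rhythmic genes, and reached 1 in none. In the authors' deposited table of rhythm tests, 52 of the 331 members were at an adjusted p under 0.05 in DRF (15.9% of its 16119 genes were), and 14 in NRF (7.16% of its genes were). That table rests on another rhythm test and another set of genes, so its counts are not compared with those above.

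**Figure D4:**
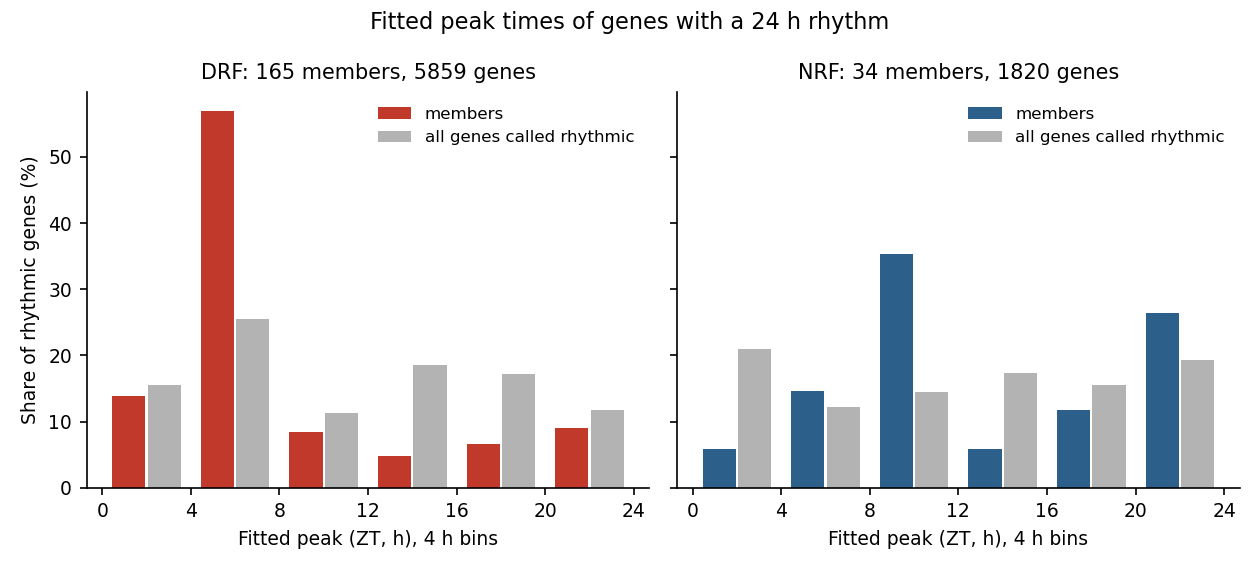
Bars give the share, in percent, of genes with a 24 h rhythm whose fitted peak falls in each bin of 4 h of zeitgeber time, for the members (coloured) and for all rhythmic genes (grey), in DRF (left) and NRF (right). The tallest bar is that of the DRF members from ZT4 to ZT8, at 57.0%, beside 25.5% of all genes.

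Zfp462, a protein with 33 fingers known from neural and embryonic development, was rhythmic in both regimens. In DRF it had 28.1, 21.9, 27.6 and 22.5 CPM at ZT4 and 13.3, 9.92, 11.6 and 14.6 CPM at ZT16, with a peak-to-trough difference of 0.923 and a fitted peak at ZT5.09 (adjusted p = 5.37e-07). In NRF it had 29.0, 25.2, 23.6 and 22.7 CPM at ZT4 and 16.6, 13.8, 12.9 and 17.1 CPM at ZT12, with a difference of 0.708 and a peak at ZT1.30 (adjusted p = 1.81e-05). High and low times did not overlap in either regimen, and the rhythms differed by the limma test (adjusted p = 0.00334). Zfp110, a KRAB protein known to bind the neurotrophin receptor, had 23.2, 17.8, 23.9 and 20.9 CPM at ZT24 and 12.9, 16.4, 15.5 and 13.7 CPM at ZT12 in DRF. Its fitted DRF peak was at ZT2.19 with a difference of 0.533 (adjusted p = 5.17e-07), and its NRF peak at ZT6.51 with a difference of 0.340 (adjusted p = 0.00484). The rhythms differed (adjusted p = 0.00159).

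Zfp568 was rhythmic in NRF. There it had 17.6, 18.5, 15.2 and 16.8 CPM at ZT8 and 28.6, 23.0, 33.8 and 38.8 CPM at ZT20, a difference of 0.803 with a peak at ZT20.2 (adjusted p = 4.84e-06). In DRF it had 22.3 ± 2.39 CPM at ZT8 and 22.1 ± 1.81 CPM at ZT20 (SD, n = 4 each), the fitted difference was 0.078 (adjusted p = 0.824), and the rhythms differed (adjusted p = 0.00105). Zfp142, with 36 fingers, the most of any member, had 19.0, 24, 18.7 and 22.6 CPM at ZT0 and 10.9, 11.5, 12.7 and 12.1 CPM at ZT8 in NRF, with a peak at ZT21.6 (0.707, adjusted p = 1.76e-05). In DRF it had 15.1 ± 3.01 and 13.3 ± 1.56 CPM at these times (SD, n = 4 each), with a fitted difference of 0.183 (adjusted p = 0.326). Its rhythms differed as well (adjusted p = 0.0221).

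Zfp212, Zfp41 and Zfp770 passed the rhythm test in DRF and missed it in NRF, and the rhythms differed (adjusted p = 0.000674, 0.001 and 0.0188). Zfp212 had 12.8, 10.6, 10.1 and 13.4 CPM at ZT24 and 7.64, 8.42, 8.93 and 8.85 CPM at ZT8 in DRF, a difference of 0.384 with a peak at ZT20.5 (adjusted p = 2.66e-05). In NRF its levels at these times were 9.39 ± 0.190 and 10.4 ± 0.908 CPM (SD, n = 4 each), with a fitted difference of 0.129 (adjusted p = 0.405). Zfp41 had 2.29, 3.02, 2.11 and 3.87 CPM at ZT0 and 5, 4.58, 4.99 and 5.18 CPM at ZT12 in DRF, against 4.54, 4.23, 5.51 and 4.23 CPM and 2.65, 3.62, 3.15 and 3.85 CPM in NRF. At ZT24, the same clock time as ZT0, it had 3.32 ± 0.602 CPM in DRF and 3.47 ± 0.422 CPM in NRF (SD, n = 4 each), so that ZT0 and ZT12 stood in turned order between the regimens, while in NRF the libraries of ZT24 and ZT12 overlapped. The fitted peaks were at ZT12.5 (adjusted p = 9.63e-05) and at ZT3.00 (adjusted p = 0.329). Zfp770 had 33.8, 35.7, 36.9 and 28.6 CPM at ZT0 and 15.5, 16.9, 12.3 and 17.7 CPM at ZT16 in DRF, a difference of 0.987 with a peak at ZT3.69 (adjusted p = 2.28e-06); in NRF the fitted difference was 0.231 (adjusted p = 0.492).

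Zfp275 and Zfp503 passed in both regimens with fitted peaks less than 1 h apart. Zfp275 peaked at ZT6.53 in DRF (0.560, adjusted p = 5.34e-05) and at ZT6.52 in NRF (0.554, adjusted p = 0.000108), with 15.8 ± 1.93 and 17.8 ± 1.68 CPM at ZT8 and 10.4 ± 1.64 and 10.7 ± 0.648 CPM at ZT16 (SD, n = 4 each). Zfp503, a corepressor known from limb and brain development, peaked at ZT12.8 in DRF (0.872, adjusted p = 0.00230) and ZT12.3 in NRF (0.922, adjusted p = 0.00263). For these members the test of a difference in rhythm gave adjusted p = 0.999 and 0.962, which does not show that the rhythms are the same. In all, 18 members (6%) were rhythmic in both regimens, against 9.37% of all tested genes, and 12 of these (66.7%) had peaks within 4 h of each other, against 71.9% of all genes rhythmic in both.

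Rhythms differed between the regimens in 37 members (12.3%), a share near the 13.1% of all tested genes. The fitted peak-to-trough difference was larger in DRF in 32 and larger in NRF in 5, which were Zfp142, Zfp251, Zfp568, Zfp639 and Zfp706. It was larger in DRF in 86.5% of these members and in 69.0% of the 1578 genes called. Without NRF ZT20 replicate 4 the members' count became 59 and that over all tested genes 2207.

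**Figure D5:**
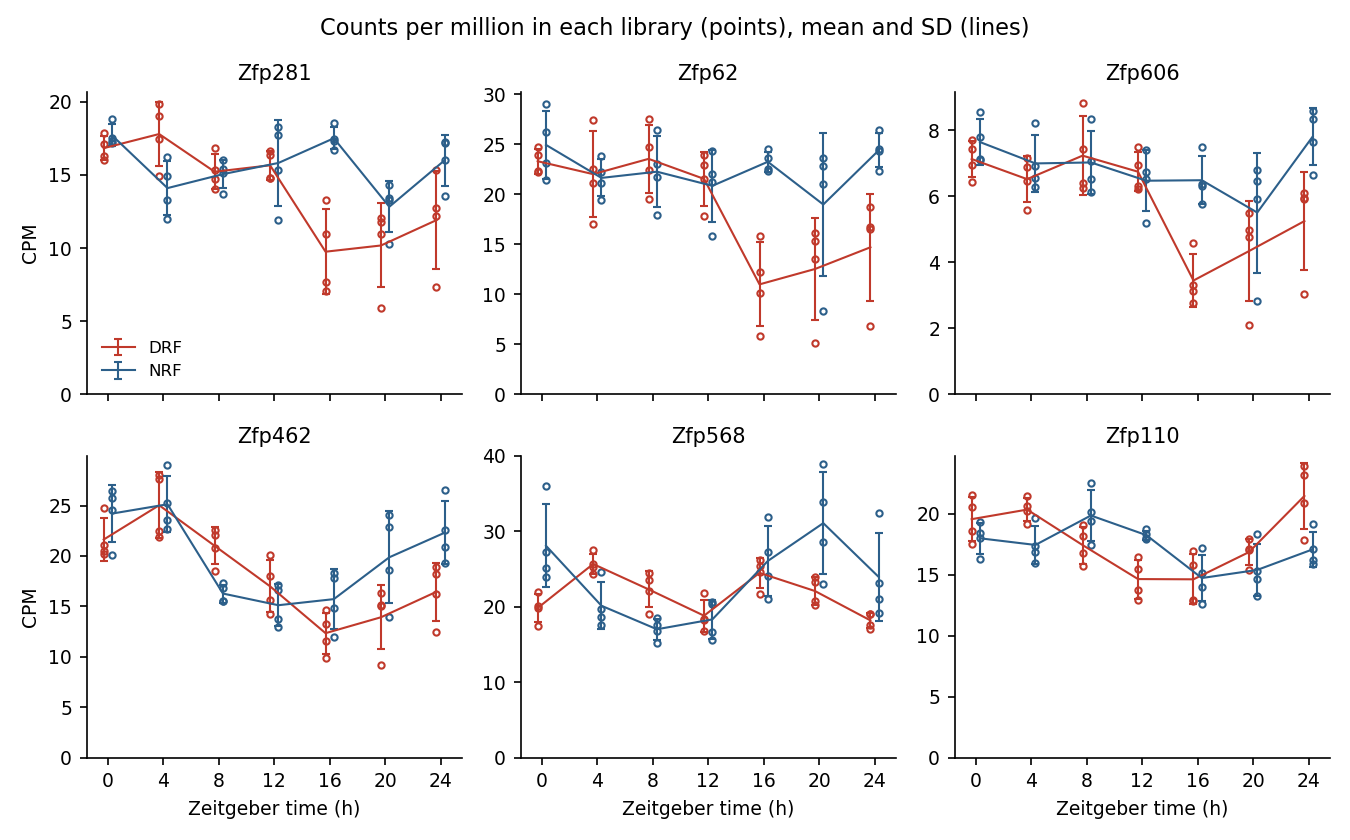
Panels plot CPM (axes from 0) against zeitgeber time in hours for 6 members, with a circle for each library and lines for the mean and SD of 4 libraries in DRF (red) and NRF (blue). In the upper row Zfp281, Zfp62 and Zfp606 are lower in DRF than in NRF at ZT16; in the lower row Zfp462 is high at ZT4 in both regimens, Zfp568 is at 28.6, 23.0, 33.8 and 38.8 CPM at ZT20 in NRF, and Zfp110 is at 12.9 to 16.4 CPM at ZT12 in DRF.

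Of the 24 tested members on a list of members with described roles, 4 were lower at ZT16 and 1, Zfp384, was higher. Over all tested genes 6.74% were lower and 4.02% higher. The lower ones were Zfp148 (-0.45, adjusted p = 0.0229), a factor that binds GC-rich promoters, Zfp281, Zfp326 (-0.39, adjusted p = 0.0431), known from the coupling of splicing to elongation, and Zfp638. Zfp148, Zfp326 and Zfp638 lost the call without DRF ZT16 replicate 3 (limma adjusted p = 0.112, 0.132 and 0.125). Zfp384 lost it without NRF ZT16 replicate 4 (0.117), among others. With the GC trend removed the calls of Zfp148 (-0.075, adjusted p = 0.484), Zfp326 (-0.18, adjusted p = 0.264) and Zfp384 (0.066, adjusted p = 0.610) were lost. Those of Zfp281 and Zfp638 were kept. In DRF 15 of the 24 were rhythmic (48.7% of all tested genes were) and in NRF 6 (15.1%). Zfp423, a factor of adipocyte commitment, was rhythmic in both, with peaks at ZT20.0 (adjusted p = 0.00193) and ZT23.0 (adjusted p = 0.00734). Zfp143, an activator bound at many promoters, peaked at ZT1.65 (adjusted p = 0.0372) and ZT2.54 (adjusted p = 0.0327), calls lost without DRF ZT16 replicate 1 (adjusted p = 0.0907) and NRF ZT12 replicate 3 (adjusted p = 0.0807) among others. Zfp809, a KRAB protein that silences retroviruses, had a ZT16 difference of -0.28 (adjusted p = 0.260), and Zfp598, the ligase of stalled ribosomes, one of 0.09 (adjusted p = 0.462).

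Of 27 genes for partners of KRAB proteins, such as Trim28, Setdb1 and the HP1 genes, 6 (22.2%) were lower and 1 (3.70%) higher at ZT16, with a median of -0.106; the shares over all tested genes were 6.74% and 4.02%. In DRF 21 of the 27 (77.8%) were rhythmic, against 48.7% of all tested genes, and in NRF 4 (14.8%), a share near the 15.1% of all. Neither these partner genes nor the families that follow were examined with the GC trend removed. Among related C2H2 families, read against the same background at ZT16, 6 of 33 tested Zbtb genes were lower and 1 higher (median -0.114), 3 of 10 Zscan genes, 1 of 8 Zkscan genes and 2 of 7 Sp genes were lower, and 1 of 13 Klf genes was higher.

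Promoter sequence in the RefSeq tables for GRCm38.p6 was found for 274 members and 15034 genes in all. In the 250 bases before the start, on either strand, the letters CCAAT were found in 138 members (50.4%), against 39.7% of all genes. The E-box CACGTG occurred in 7.66% against 8.55%, the D-box TTATGNAA in 1.46% against 2.97%, the CRE TGACGTCA in 3.28% against 2.47%, and the ROR element in none against 0.146%. A match is a description of these letters and not of a bound site.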

How the data were processed

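Per the submitters' processing notes HISAT2, Bowtie2 and RSEM were used, with mm10 and GRCm38.p6; no source used here gives versions or annotation. No strand-marking step is named per the labels' protocols, so antisense partners cannot be told apart. The authors deposited values headed TPM that are a score, read as K × log2(1 + CPM) / L, with CPM (counts per 1000000 reads) from count and library size, length L, and K giving every column 1 sum. It was inverted for 17442 of 19072 genes (14834 with whole counts); library sizes were 0.854 to 1.21 times the recovered totals. The authors' deposited rhythm tables give p-values (adjusted) and phases in hours.

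limma 3.58.1 (R 4.3.3, mean-variance trend) was run on log2(CPM + 1) for the 12024 genes with a mean CPM of 1 or more, in all 56 libraries, with Benjamini-Hochberg adjustment at 0.05; this scale understates changes of low genes. Rhythms were F tests of 24 h cosine and sine terms. These steps were tested on simulated data. Coding sequences and transcript GC came from GENCODE M21; fingers were counted as cysteine, 2 to 4 residues, cysteine, 12 residues, histidine, 3 to 5 residues, histidine, and KRAB boxes by a profile. Named members had the 5 highest levels per length or the 5 smallest p in a comparison, lay nearest the detection rule, or were on a role list; others were named after their values were seen. The members and lists were chosen with earlier results of these data known.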

Additional observations from a re-analysis of the deposited data

Results flagged for a closer look

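In 78 groups of 4 libraries (the 14 groups' medians over the members and GC trends, and the groups of members whose levels are given above) a gap to the nearest other library, divided by the group's range, was compared with Dixon's critical value for 4 values; chance alone passes about 1 group in 20. Of these, 9 passed. For the median over the members the ratio was 0.94 in DRF ZT20 (replicate 1 low), 0.907 in NRF ZT20 (replicate 4 low) and 0.844 in NRF ZT16 (replicate 3 high). For the correlation with transcript GC it was 0.895 in DRF ZT16 (replicate 4 low), 0.894 in DRF ZT20 (replicate 1 high) and 0.944 in NRF ZT4 (replicate 2 high). Among members it was 0.879 for Zfp947 in DRF ZT16 (replicate 4 high), 0.977 for Zfp142 in DRF ZT8 (replicate 3 high) and 0.94 for Zfp770 in NRF ZT0 (replicate 2 high).

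The test of a difference in 24 h rhythm between DRF and NRF (limma, adjusted p) passed in 15 named members. The p-values were 0.000674 for Zfp212, 0.001003 for Zfp41, 0.00105 for Zfp568, 0.00155 for Zfp784, 0.00159 for Zfp110, 0.00303 for Zfp52 and 0.00334 for Zfp462. Zfp207, which acts at spindle kinetochores, followed with 0.0120, Zfp281 with 0.0143, Zfp770 with 0.0188, Zfp142 with 0.0221 and Zfp638 with 0.0228. Zfp467 had 0.0264, Zfp27 0.0364 and Zfp597 0.0421; these were lost without NRF ZT12 replicate 3 (0.0538), NRF ZT4 replicate 4 (0.0720) and DRF ZT20 replicate 1 (0.0783), among others for the last pair. With the GC trend removed those of Zfp27 (0.0773) and Zfp597 (0.120) were lost as well. The step from other times to ZT16 differed between the regimens in Zfp281 (adjusted p = 0.0391, and 0.151 without DRF ZT16 replicate 3).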

How the results depend on the processing

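Counts of called members and their values under other settings were as follows. For DRF against NRF averaged over the day (53), total-count scaling gave 156, no filter 32, length trend removed 30, GC trend removed 15, GC and length trends removed 8, and omission of DRF ZT20 replicate 1 and NRF ZT20 replicate 4 together 92. In that order the members' shares were 52%, 9.67%, 10%, 5.03%, 2.68% and 30.7%. Those of all tested genes were 29.1%, 8.82%, 8.87%, 9.34%, 5.05% and 19.9%. At ZT16 (89), log2 of the deposited value plus 1 gave 54 (18%, against 5.56% of all tested genes). GC trend removed gave 12 (4.03%, against 2.40%), and GC and length removed 14 (4.70%, against 2.23%). For the other 6 times (39, against 1809 calls over all tested genes), omission of those 2 libraries gave 70, against 2471. With the length trend removed 16 were higher and 10 lower, against 1631 over all tested genes in either direction. For ZT16 against other times in DRF (109), GC removed gave 53 and both trends removed 61; in NRF (2), quantile scaling gave 4 (1 higher, 3 lower), GC removed 9, both removed 10 and omission of the 2 libraries 8. The ZT16 median (-0.212) was -0.327 with total-count scaling, -0.0965 with GC removed and -0.0977 with both removed. With total-count scaling the all-gene median shifted by -0.137, and the members relative to it were at -0.218, against -0.239. With log2 of the deposited value plus 1 the median was -0.129. That value is a log of a score already on a log scale, so it is not in the units of -0.212. With GC removed, Zfp266 at ZT16 (0.102), Zfp266 at ZT16 against other DRF times (0.0640) and Zfp871 at ZT16 (0.0688) turned sign; with both removed, Zfp148 averaged (0.000593), Zfp266 averaged (0.000995), Zfp266 at ZT16 (0.128) and against other DRF times (0.0752), and Zfp871 averaged (0.00671) and at ZT16 (0.0749) did. The GC settings and the joint omission were chosen after seeing the data. The cause of these moves was not tested.

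Leaving out 1 library at a time gave 25 to 118 (average), 1 to 124 (ZT16), 25 (without NRF ZT24 replicate 4) to 69 (without NRF ZT20 replicate 4; other 6 times), 126 to 177 (rhythm in DRF), 28 to 37 (rhythm in NRF), 29 to 59 (difference in rhythm), 24 to 147 (ZT16 against other times, DRF), 1 to 5 (NRF: 1 without NRF ZT16 replicate 2, 4 without DRF ZT0 replicate 3, DRF ZT16 replicate 4 or DRF ZT20 replicate 1, 5 without NRF ZT20 replicate 4) and -0.259 to -0.188 (median). Over all tested genes the NRF count of ZT16 against other times (345) became 158, 366, 357, 414 and 374, in the order of the libraries named. Of 147 calls of named members, 95 kept direction and threshold with GC removed, 127 with length removed, 122 with total-count scaling, 131 with quantile scaling, 138 with the block and 147 with a pseudocount of 0.5. Same-numbered libraries did not deviate together (mean correlation -0.0166, 120 of 364 pairs over 0.1), so the numbers are not taken as pairs; a replicate block gave 50, 81, 34, 163, 32, 34, 103 and 2 for the counts in the order of this paragraph. The median member had 183 reads per library as a median; whether depth set which members were called was not tested.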
